A study of Mus musculus with 12 samples.

Results

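The microRNAs miR-143, miR-145, miR-199a, miR-199b and miR-214, typical of stromal and smooth muscle cells, were followed in epididymal fat of mice by quantitative RT-PCR, which reports the threshold cycle (Ct) at which a product is detected. The 6 mature forms were mmu-miR-143-3p, mmu-miR-145a-5p, mmu-miR-199a-3p, mmu-miR-199a-5p, mmu-miR-199b-5p and mmu-miR-214-3p (the prefix, for mouse, is mostly left out), taken by name from 504 microRNA assays, with the main arm used for miR-145 and miR-214. All 6 were listed and were measured in all 12 pools, and all 6 passed the filter on late cycles, which removed none of the 504. The donors were wild-type male C57BL/6J mice. In the WL group a high-fat diet, with 45% of energy from fat, ran from mating to the end of the study at 23 weeks. In the UL group it ran from mating to weaning and in the UT group it was limited to life in utero, by way of the dam. In the CD group a matched control diet with 10% of energy from fat was given. All dams ate a standard breeding diet up to mating. Each group had 3 pools made from 12 mice. The labels do not say which mice or litters went into which pool, so p-values measure the spread between pools and not between single animals.

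MicroRNAs are short RNAs that lower the output of messenger RNAs that pair with them, mainly through the seed near their 5′ end. miR-143 and miR-145 are cut from a shared transcript that is abundant in smooth muscle cells, pericytes and fibroblasts, and in mouse smooth muscle miR-145 represses Klf4 and miR-143 represses Elk1. In human preadipocytes miR-143 has been tied to adipocyte differentiation. miR-199a and miR-214 are cut from a long transcript, Dnm3os, that runs on the opposite strand within a dynamin gene and is typical of mesenchymal cells. miR-199a-3p represses mTOR in human liver cancer cells, miR-199b-5p represses Dyrk1a in mouse heart and miR-214 represses Ezh2 in mouse skeletal muscle.

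In the RefSeq gene annotation the noncoding gene Carmn spans Mir143 and Mir145a. Dnm3os, together with Dnm3, spans Mir199a-2 and Mir214, Dnm2 spans Mir199a-1, and Dnm1 spans Mir199b. Sequences are shown for the miR-199 and miR-214 products because their relatedness bears on which assays report on which locus. They are given 5′ to 3′ from RefSeq (GRCm38.p6), with the seed, bases 2 to 8, in capitals. miR-199a-5p lies at chr1:162217844-162217866 (plus strand) in Mir199a-2, and the same bases lie at chr9:21496537-21496559 (minus strand) in Mir199a-1. miR-199a-3p lies at chr1:162217883-162217904 (plus strand), and miR-214-3p at chr1:162223438-162223459 (plus strand).
miR-199a-5p: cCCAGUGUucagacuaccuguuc
miR-199a-3p: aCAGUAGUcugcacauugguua
miR-214-3p: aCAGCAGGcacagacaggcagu
Both copies of Mir199a give identical arms, and miR-199b-3p from Mir199b (chr2:32318524-32318545, plus strand) has the same 22 bases as miR-199a-3p. The assay named miR-199a-3p therefore cannot tell 3 hairpins apart, and the miR-199a-5p assay cannot tell 2 apart. The seeds of miR-199a-3p and miR-214-3p share 5 of 7 bases and are not identical.

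The 5p arms of the miR-199 genes differ. The stretch of the Mir199b hairpin that aligns with miR-199a-5p (chr2:32318485-32318507, plus strand) has 22 of 23 bases in common with it and the same seed. Counted from the 5′ end, with miR-199a-5p first, the difference is C10U. It is shown with the differing base in capitals, followed by the hairpins of Mir199a-2 (chr1:162217814-162217923), Mir199b (chr2:32318460-32318569) and Mir214 (chr1:162223368-162223477), all on the plus strand, with both arms in capitals.
Mir199b stretch: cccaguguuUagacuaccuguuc
Mir199a-2 hairpin: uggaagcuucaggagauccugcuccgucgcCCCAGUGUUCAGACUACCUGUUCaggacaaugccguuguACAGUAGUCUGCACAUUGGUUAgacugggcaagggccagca
Mir199b hairpin: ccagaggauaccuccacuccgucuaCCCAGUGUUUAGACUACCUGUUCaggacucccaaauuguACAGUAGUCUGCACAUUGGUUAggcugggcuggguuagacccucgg
Mir214 hairpin: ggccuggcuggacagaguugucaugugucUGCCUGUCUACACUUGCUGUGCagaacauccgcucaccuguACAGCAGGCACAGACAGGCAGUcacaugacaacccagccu
The Mir199a-2 and Mir214 hairpins lie 5444 bases apart on the same strand. Whether the assays separate miR-199a-5p from the Mir199b product by that base was not tested.

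The relative level used throughout is the mean Ct of the 466 microRNAs complete in all pools, minus the Ct of the microRNA, so that 1 unit is 1 cycle on the log2 scale and a higher value is an earlier Ct. The median Ct of a pool lay between 24.6 and 25.3, and 490 to 504 assays gave a value in each pool. WL 3 and UT 2 stood apart from the others, at 21.5 and 16.2 on a first principal component holding 25.9% of the variance, against −7.67 to 2.75 for the other 10 pools. Some of the results that rest on them are given without them as well. Pools were put in groups by their sample titles. In the authors' deposited table of fold changes the UT column matched the mean of the 3 UT pools in 507 of 507 assays. Its UL column matched UT 2, UT 3 and UL 1, and its WL column UT 3, UL 1 and UL 2, each in 507 of 507. The columns of that table therefore share pools, with UT 3 in all 3 of them. None holds UL 3 or any WL pool. The table thus does not sort the pools into separate groups and offers no other grouping to set beside the titles. Why it averages these pools was not tested. The titles were not checked by other means, and every UL and WL value here rests on them. Whole fat pads hold many cell types, so fewer cells of a type and less of a microRNA per cell cannot be told apart, and the label stromal rests on textbook knowledge and not on these measurements. Of the adipocyte list, 5 of 6 microRNAs were measured, at a mean relative level between 2.26 and 3.36 over all pools. The liver microRNA miR-122-5p lay between −2.09 and 0.70, and the 4 striated muscle microRNAs averaged −1.93 to −0.35.

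All 6 members were among the earlier assays. If all assays amplify alike, miR-145a-5p held rank 16 of the 466 complete microRNAs by its mean over pools, miR-199a-3p rank 31, miR-214-3p rank 57, miR-143-3p rank 65, miR-199a-5p rank 87 and miR-199b-5p rank 118. Of 4 opposite arms looked for, 1 was measured under its own name. Another, miR-199b-3p, has the same bases as miR-199a-3p, whose assay cannot tell them apart. The measured arm, miR-143-5p, is the opposite arm of miR-143-3p, and it held rank 350. Its Ct averaged 27.2 ± 0.91 in WL, 27.1 ± 0.74 in UL, 27.9 ± 0.92 in UT and 27.5 ± 0.061 in CD (SD over 3 pools). In every pool miR-143-3p was therefore at least 5.03 cycles earlier than its opposite arm.

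mmu-miR-143-3p was lowest in the UT pools. Its relative level was 4.49, 4.74 and 4.77 in WL, 5.04, 3.80 and 4.55 in UL, 3.72, 4.15 and 3.40 in UT, and 5.11, 4.73 and 4.62 in CD. Every UT pool lay below every CD pool and every WL pool, while UL 2 lay among the UT pools. The group means were 4.67 ± 0.16 in WL, 4.47 ± 0.62 in UL, 3.76 ± 0.38 in UT and 4.82 ± 0.26 in CD (SD over 3 pools). In ascending order the groups stood as UT, UL, WL and CD, and neighbours in that order overlapped. The raw Ct values were 20.9, 20.4 and 21.7 in UT, against 19.7, 20.1 and 20.3 in CD, so these groups were separate in the raw Ct as well.

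mmu-miR-145a-5p, made from the same transcript, did not separate the groups. The 3 WL pools had relative levels of 6.83, 7.52 and 7.11, the UL pools 7.03, 6.48 and 6.28, the UT pools 6.43, 7.27 and 6.61, and the CD pools 7.85, 6.59 and 6.79. The highest value was CD 1 and the lowest UL 3, and the ranges of all 4 groups overlapped. Means were 7.15 ± 0.35 in WL, 6.60 ± 0.39 in UL, 6.77 ± 0.44 in UT and 7.08 ± 0.68 in CD (SD over 3 pools), and the steps between neighbours in their order were smaller than these SDs.

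mmu-miR-199a-3p and mmu-miR-199a-5p, the arms of miR-199a, were lowest on average in WL and UT. miR-199a-3p had relative levels of 6.12, 5.49 and 4.96 in WL, 5.88, 6.39 and 5.78 in UL, 5.39, 5.64 and 6.12 in UT, and 6.59, 6.27 and 5.79 in CD. miR-199a-5p stood at 3.64, 3.48 and 2.75 in WL, 3.34, 4.26 and 3.91 in UL, 2.77, 3.28 and 3.89 in UT, and 4.46, 4.10 and 3.87 in CD. For miR-199a-5p every WL pool lay below every CD pool, UT overlapped CD by 1 pool, UT 3, and for miR-199a-3p all groups overlapped CD. WL 3 was the lowest of all 12 pools for both arms. The group means of miR-199a-3p were 5.52 ± 0.58 in WL, 6.02 ± 0.33 in UL, 5.72 ± 0.37 in UT and 6.22 ± 0.40 in CD (SD over 3 pools). Those of miR-199a-5p were 3.29 ± 0.47 in WL, 3.84 ± 0.46 in UL, 3.31 ± 0.56 in UT and 4.14 ± 0.30 in CD. Both arms put the groups in the ascending order WL, UT, UL and CD, and neighbours in that order overlapped.

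mmu-miR-199b-5p had nearly equal group means, with SDs between 1.25 in WL and 0.085 in CD. Its relative level was 2.74, 3.63 and 1.16 in WL, 2.04, 3.01 and 2.63 in UL, 2.41, 1.93 and 3.50 in UT, and 2.59, 2.76 and 2.67 in CD. The means were 2.51 ± 1.25 in WL, 2.56 ± 0.49 in UL, 2.61 ± 0.80 in UT and 2.68 ± 0.085 in CD (SD over 3 pools), in that ascending order, and each step was smaller than the SD of the lower group. WL 3 was again the lowest of the 12 pools, and WL 2 the highest.

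mmu-miR-214-3p had relative levels of 4.50, 4.72 and 4.87 in WL, 5.16, 4.38 and 4.83 in UL, 4.47, 4.62 and 3.97 in UT, and 4.60, 5.19 and 4.96 in CD. UT 3 was lowest and the ranges overlapped in every comparison with CD. Its group means were 4.70 ± 0.19 in WL, 4.79 ± 0.39 in UL, 4.35 ± 0.34 in UT and 4.92 ± 0.30 in CD (SD over 3 pools), in the ascending order UT, WL, UL and CD, with overlap between neighbours.

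**Figure D1:**
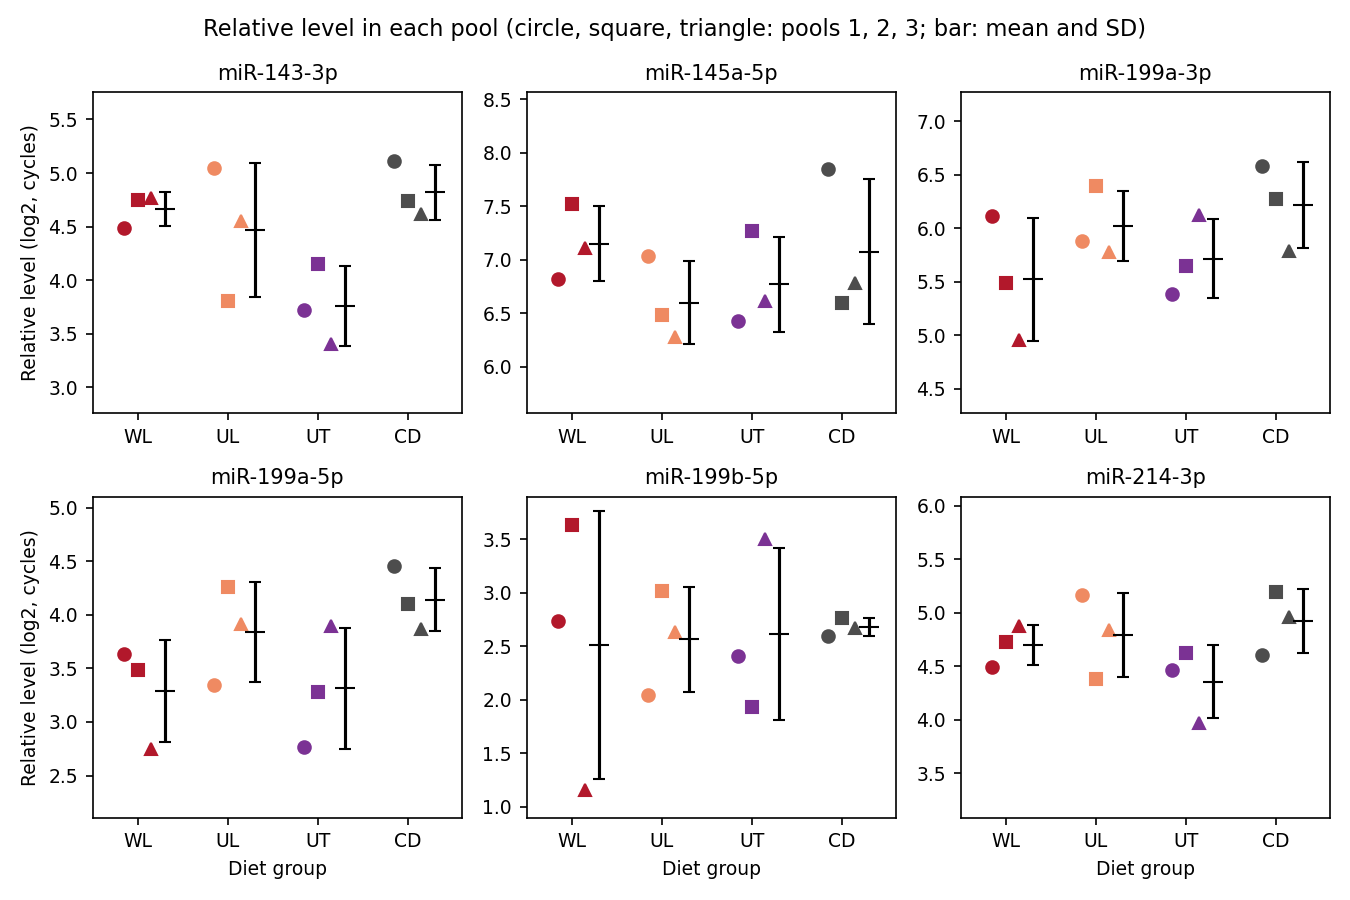
Relative level (log2, cycles) of the 6 microRNAs in each of the 12 pools, by diet group, with circles, squares and triangles for pools 1, 2 and 3 and bars for the mean and SD. The 3 UT pools of miR-143-3p, at 3.40 to 4.15, lie below the 3 CD pools at 4.62 to 5.11, and the 3 WL pools of miR-199a-5p, at 2.75 to 3.64, lie below the CD pools at 3.87 to 4.46.

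Exposure in utero alone was set against the control diet to ask whether an early diet leaves a difference in adult fat. No member passed limma's test (adjusted p under 0.05 over 504 microRNAs), against 7 of all 504, or 1.39%. miR-143-3p differed most, with a log2 fold change of −1.06 (SE 0.36, 95% interval −1.85 to −0.28), a ratio of 0.479 of UT over CD. Its unadjusted p was 0.0122, the 21st smallest of 504, and its limma adjusted p was 0.280. Without UT 2 the estimate was −1.26, without UT 3 −0.88. Under an unadjusted p of 0.05 lay 51 of all 504 microRNAs, or 10.1%.

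The miR-199 and miR-214 members had smaller differences in the UT group. The log2 fold change was −0.83 for miR-199a-5p (95% interval −1.69 to 0.03, limma adjusted p = 0.504), −0.56 for miR-214-3p (−1.26 to 0.13, adjusted p = 0.605) and −0.50 for miR-199a-3p (−1.32 to 0.33, adjusted p = 0.715). For miR-145a-5p it was −0.31 (95% interval −1.19 to 0.58, limma adjusted p = 0.843) and for miR-199b-5p −0.06 (−1.34 to 1.22, adjusted p = 1.00). All 6 estimates lay below 0, with a median of −0.53, against 51.2% of all microRNAs and a median of −0.01. Of the 6, miR-143-3p was the 1 whose UT range lay wholly below its CD range, against 6.88% of the 480 microRNAs with 3 values in both groups. Scaling to the small RNA RNU-43 in place of the microRNA mean moved the median of all microRNAs to 0.73, and with it miR-143-3p stood at −0.32, miR-199a-5p at −0.09 and the other 4 members above 0. RNU-43 itself had relative levels of 6.96, 6.89 and 6.37 in UT, against 7.73, 7.13 and 7.59 in CD. The other reference RNA, U6, stood at 9.52 in UT 2 and 9.67 in UT 3, against 9.40, 9.68 and 9.59 in CD, and had no value in UT 1.

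Levels of other cell types' markers were compared between these pools as well, and none of the listed markers passed the test. The 6 epithelial microRNAs of the miR-200 family and miR-205 averaged 0.24 to 2.25 in the UT pools, against 1.71 to 4.26 in the CD pools, and all 6 had a log2 fold change below 0, with a median of −2.37 and a lowest adjusted p of 0.280. The 6 leukocyte microRNAs averaged 1.06 to 1.76 in UT and 1.56 to 2.31 in CD. The 9 measured testis and epididymis microRNAs averaged −1.09 to 0.68 in UT and −1.07 to −0.41 in CD. In each of these lists the UT and CD ranges overlapped. Group means in UT and CD were 2.45 and 2.68 for the adipocyte list and 7.28 and 7.19 for the endothelial list. They were 4.63 and 4.45 for the erythroid list and −1.07 and −0.88 for striated muscle. The 2 endothelial microRNAs had log2 fold changes of −1.19 and 1.36, with a lowest limma adjusted p of 0.077. All 6 epithelial and all 6 leukocyte microRNAs were measured in every pool. Their part in the values of miR-143-3p and the other members was not tested.

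**Figure D2:**
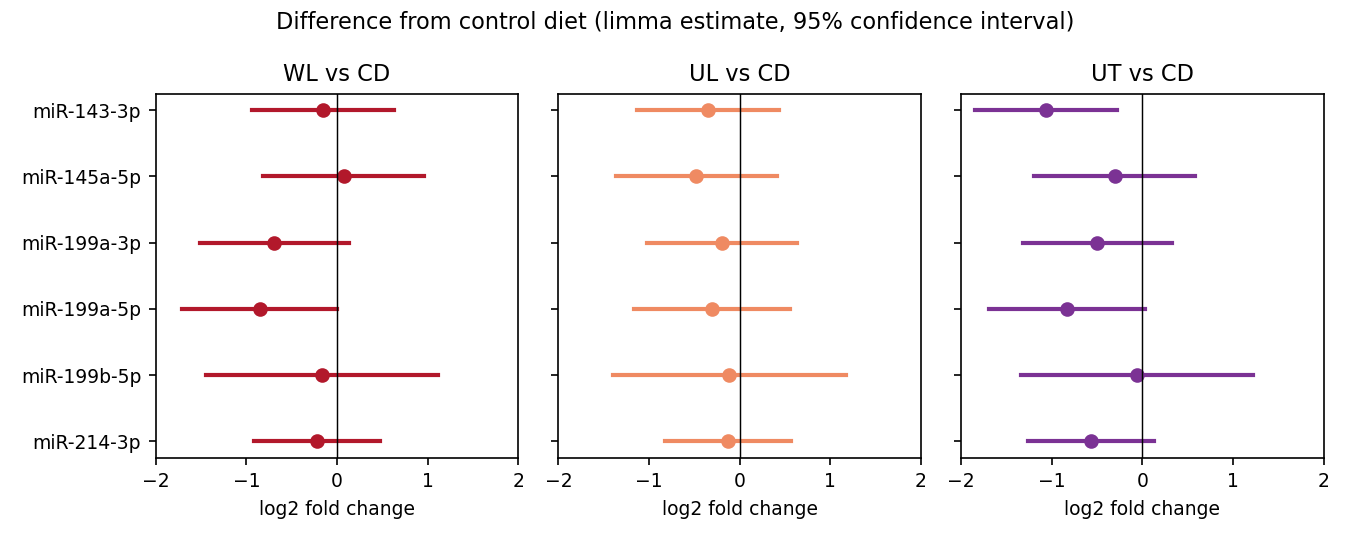
limma log2 fold change of each of the 6 microRNAs in WL, UL and UT against CD, with points for the estimate and bars for the 95% interval. Only the interval of miR-143-3p in UT, −1.85 to −0.28, lies clear of 0, and its adjusted p of 0.280 did not pass.

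The high-fat diet over the whole of life was set against the same CD pools, so its estimates share their error with those of UT and UL. In WL, 3 of 504 microRNAs passed (0.595%) and none of them was a member. miR-199a-5p differed most, with a log2 fold change of −0.85 (SE 0.39, 95% interval −1.71 to 0.0045), a ratio of 0.553 of WL over CD, an unadjusted p of 0.0510 and a limma adjusted p of 0.663. Of the members it was the 1 whose WL range lay wholly below CD, against 5.2% of 481 microRNAs. Without WL 3 its estimate was −0.57.

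Its other arm, miR-199a-3p, had a log2 fold change in WL of −0.69 (95% interval −1.52 to 0.13, limma adjusted p = 0.762), which became −0.40 without WL 3. miR-214-3p had −0.22 (95% interval −0.92 to 0.47, adjusted p = 0.971) and miR-143-3p −0.15 (−0.94 to 0.63, adjusted p = 0.978). miR-145a-5p had 0.07 (95% interval −0.81 to 0.96, limma adjusted p = 0.994). miR-199b-5p had −0.17 (95% interval −1.45 to 1.12, limma adjusted p = 0.978), and without WL 3 its direction turned, to 0.52. Scaling to U6 and RNU-43 together, which also drops WL 3 and UT 1 for want of a U6 value, put miR-199b-5p at 0.72 and miR-143-3p at 0.0039, and quantile normalization put miR-145a-5p at −0.12. The members' median was −0.19, with 5 of 6 below 0, against −0.06 and 56.5% for all microRNAs. The adipocyte list averaged 3.10 to 3.36 in the WL pools and 2.45 to 2.93 in the CD pools, and the leukocyte list 1.94 to 3.16 in WL and 1.56 to 2.31 in CD. Their part in these values was not tested.

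Exposure from mating to weaning gave estimates no further from 0 than −0.48. In UL, 3 of 504 microRNAs passed (0.595%), none of them a member. The 6 log2 fold changes ran from −0.48 for miR-145a-5p (95% interval −1.37 to 0.41) to −0.11 for miR-199b-5p (−1.40 to 1.17), with limma adjusted p = 0.995 for each. miR-143-3p had −0.36 (95% interval −1.14 to 0.43) and miR-199a-5p −0.30 (−1.16 to 0.55). All 6 lay below 0, with a median of −0.25, against 56.3% and −0.07 for all microRNAs. With RNU-43 scaling the median of all microRNAs was 0.30 and 1 of the 6 members lay below 0, miR-145a-5p. No member's UL range lay clear of its CD range, against 7.88% of 495 microRNAs.

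The steps between exposure periods were compared directly. Between UL and UT 0 of 504 microRNAs passed limma's adjusted threshold (0%), with 40 at an unadjusted p under 0.05 (7.94%), and between WL and UL 0 passed (0%), with 27 at an unadjusted p under 0.05 (5.36%). No member's ranges lay apart in either contrast, against 13.3% of 481 and 9.88% of 486 microRNAs. miR-143-3p was higher on average in UL than in UT, by a log2 fold change of 0.71 (95% interval −0.08 to 1.49, adjusted p = 0.657), with ranges that overlapped through UL 2. miR-199a-5p stood at 0.52 in UL over UT (95% interval −0.33 to 1.38, limma adjusted p = 0.811) and at −0.55 in WL over UL (−1.41 to 0.31, adjusted p = 0.811). Leaving out single pools put its WL over UL estimate between −0.80 and −0.26. miR-145a-5p, at 0.55 in WL over UL (95% interval −0.33 to 1.44, limma adjusted p = 0.811), had the largest estimate of that contrast among the members, beside −0.55 for miR-199a-5p. In limma's F test over the 4 groups 2 of 504 microRNAs passed (0.397%), no member among them, with adjusted p from 0.490 for miR-143-3p to 0.995 for miR-199b-5p.

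**Figure D3:**
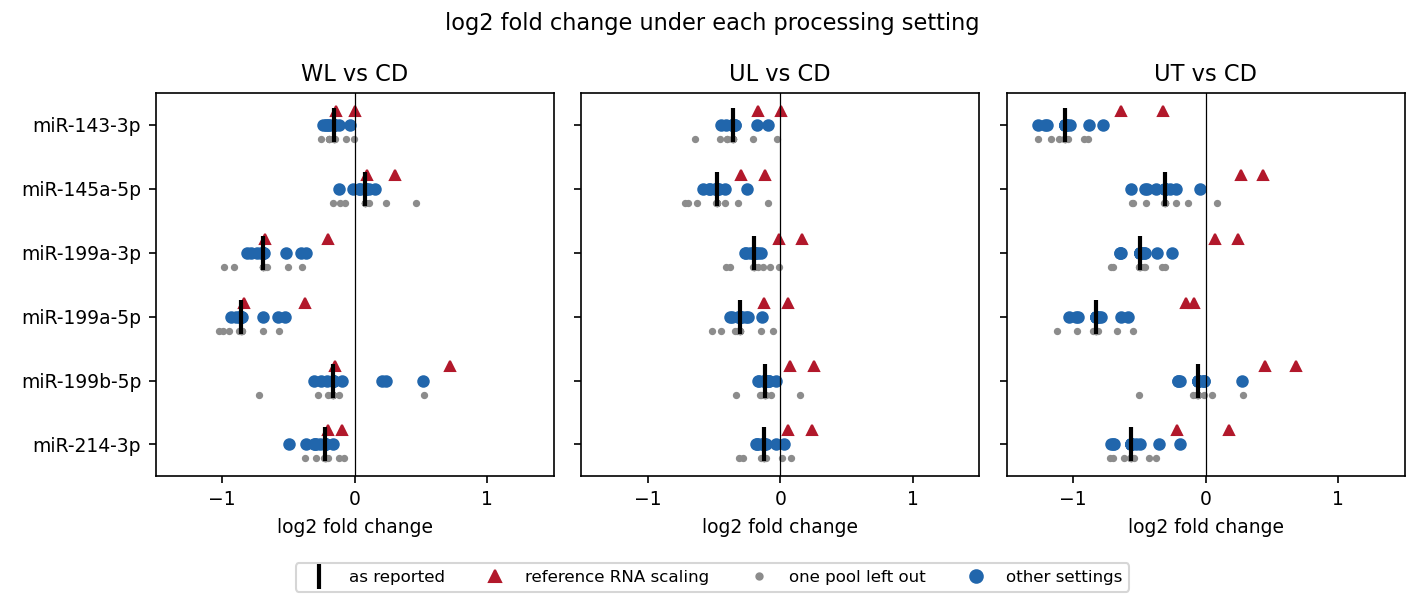
log2 fold change of each of the 6 microRNAs against CD under each processing setting, with a black bar for the reported value, red triangles for scaling to reference RNAs, grey dots for fits that leave out 1 pool and blue circles for the other settings. miR-143-3p in UT stayed below 0 throughout, between −1.26 and −0.32, as did miR-199a-5p, between −1.12 and −0.09, while miR-199b-5p fell on both sides of 0.

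Differences between members of the same pool do not depend on the scaling. miR-199a-3p ran ahead of miR-199a-5p by 1.87 to 2.62 cycles in all 12 pools, with an SD of 0.24 over pools. The miR-199a-3p assay cannot tell miR-199b-3p apart, so this cannot be read as a gap between arms of the same hairpin. The gap was 2.62, 2.36 and 2.23 cycles in UT, against 2.13, 2.17 and 1.92 in CD, so that the UT range lay above the CD range. By comparison miR-214-3p differed from miR-199a-5p by 0.08 to 2.12 cycles, with an SD of 0.67.

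Next to miR-214-3p and to its own opposite arm, miR-143-3p was lower in UT than in CD. miR-214-3p minus miR-143-3p was −0.02 to 0.10 cycles in WL, 0.12 to 0.58 in UL, 0.47 to 0.75 in UT and −0.51 to 0.46 in CD. miR-143-3p minus miR-143-5p was 5.95 to 7.80 cycles in WL, 5.03 to 7.56 in UL, 6.51 to 7.13 in UT and 7.26 to 7.75 in CD. For neither pair did UT overlap CD, though for the first pair UT 2 at 0.47 all but met CD 2 at 0.46. The gap between the arms of miR-143 was no smaller in UT than in WL or UL, whose means were 6.88 and 6.58 beside 6.91 in UT. miR-143-3p minus miR-145a-5p was −3.21 to −2.71 cycles in UT and −2.74 to −1.86 in CD, which overlapped. Of 7 pairs looked at, 3 did not overlap in UT against CD, while 16.3% of all 108345 pairs of complete microRNAs did not. The 7 pairs share members and are not independent. In WL and in UL 0 of the 7 lay apart from CD, against 11.2% and 8.94% of all pairs.

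Across the 12 pools the 2 arms of miR-199a were the most alike of the members. They had Pearson r = 0.90 (Spearman rho 0.87, and 0.86 within groups, after the group means were taken away), and r = 0.81 without the 2 pools farthest from the median. miR-143-3p had r = 0.79 with miR-214-3p (rho 0.69, within groups 0.67) and r = 0.56 with miR-145a-5p (rho 0.61, within groups 0.64). Without the 2 farthest pools these became 0.59 and 0.49. miR-199a-5p and miR-214-3p, which Dnm3os can both yield, had r = −0.10, with −0.80 within groups, and miR-199a-3p and miR-214-3p had r = −0.19, with −0.70 within groups. With RNU-43 scaling the within-group values were 0.08 and 0.25, while they stayed negative with the sample median (−0.76 and −0.68), quantile normalization (−0.64 and −0.62) and the deposited ratios with the sign turned (−0.79 and −0.72). miR-199b-5p had r = 0.49 with miR-199a-3p (within groups 0.57) and 0.56 with miR-199a-5p (within groups 0.73). Without the 2 farthest pools r became 0.22 and 0.29, and without UT 2 and WL 3 it became 0.00 and 0.23. With RNU-43 scaling the within-group values of these pairs were 0.75 and 0.84. All these values rest on the same 12 pools and the same scaling term and are given as a description.

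**Figure D4:**
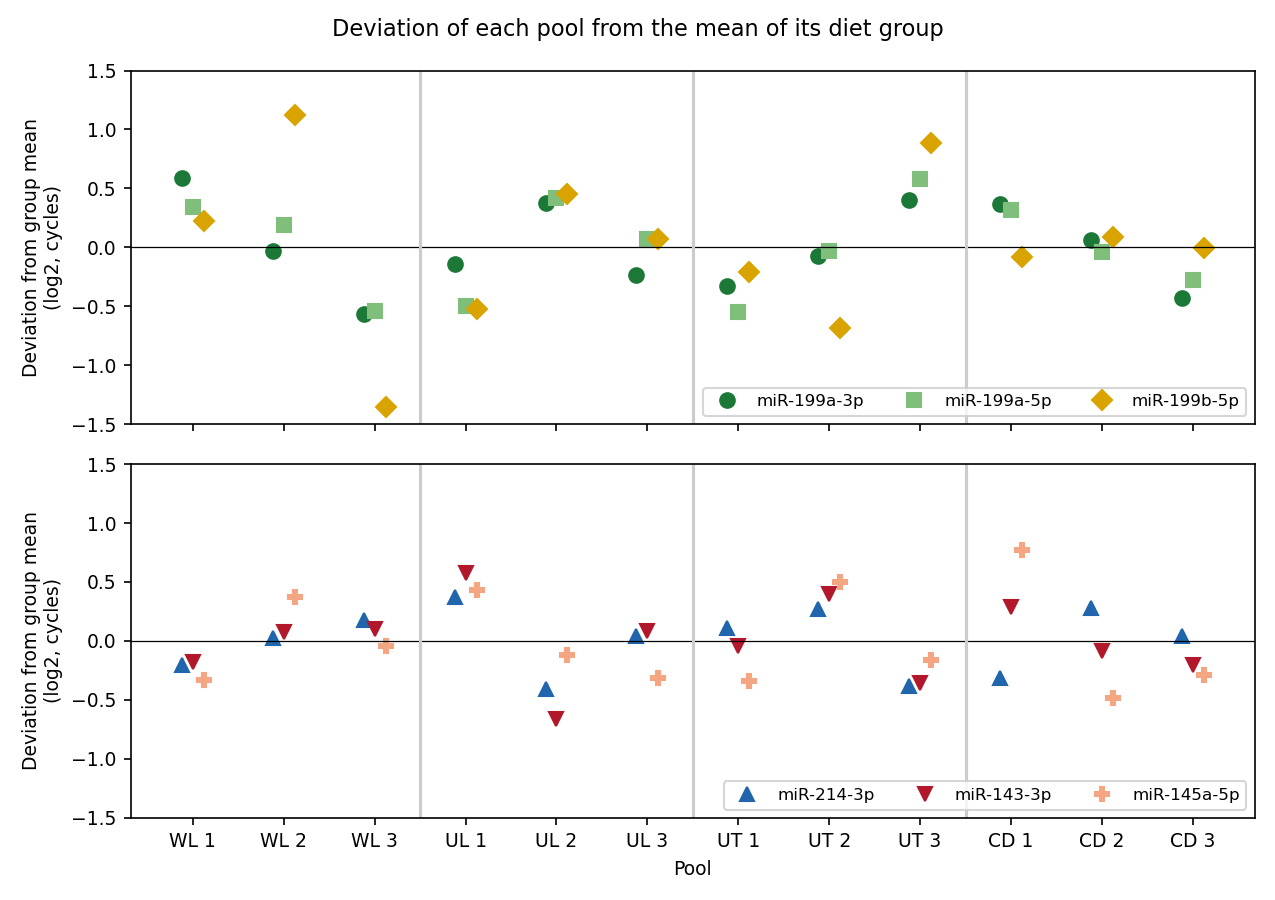
Deviation of the relative level (log2, cycles) from the mean of the diet group, by pool, for the 3 miR-199 microRNAs (upper panel) and for miR-214-3p, miR-143-3p and miR-145a-5p (lower panel). The miR-199 microRNAs are low together in WL 3 and high together in UT 3, where miR-214-3p and miR-143-3p, at −0.38 and −0.36, are low.

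The microRNAs most like each member were named by the highest Pearson r over the 12 pools among the 466 complete microRNAs. For miR-143-3p they were miR-324-5p (r = 0.94), miR-337-3p (0.91) and miR-101a-3p (0.88). For miR-145a-5p they were miR-196b-5p (r = 0.81), miR-592-5p (0.75) and miR-100-5p (0.74), and for miR-214-3p miR-204-5p (0.79), miR-143-3p (0.79) and miR-30c-5p (0.78). For miR-199a-3p they were miR-191-5p (r = 0.98), miR-24-1-5p (0.90) and miR-199a-5p (0.90). For miR-199a-5p they were miR-24-1-5p (r = 0.92), miR-199a-3p (0.90) and miR-674-3p (0.87), and for miR-199b-5p miR-221-3p (0.94), miR-7b-5p (0.92) and miR-301a-3p (0.90). For these miR-199 members the 2 pools farthest from the median included WL 3. Without those pools r became 0.97, 0.80 and 0.81 for miR-199a-3p and 0.86, 0.82 and 0.77 for miR-199a-5p. For miR-199b-5p it became 0.88, 0.80 and 0.76.

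For the miR-199 members most of these likest assays stood close to the member when assays were put in the order of their registry accession numbers. Of the 18 entries, 7 lay within 10 places, against 4.38% of all other assays on average. All 7 belonged to miR-199a-3p (3), miR-199a-5p (2) and miR-199b-5p (2), and none of the entries of miR-143-3p, miR-145a-5p and miR-214-3p lay that close. miR-191-5p was 4 places from miR-199a-3p, and miR-221-3p was 3 places from miR-199b-5p. Over the 458 complete assays with an accession, the median r within groups was 0.48 for assays 1 place apart, 0.32 at 2 to 5 places and −0.02 beyond 100 places. miR-199a-3p and miR-199a-5p stand 1 place apart in that order, miR-143-3p and miR-145a-5p 36 and miR-199a-5p and miR-214-3p 104. The part that this order has in the correlations of the members was not tested. The tests of the diet groups with the neighbours' deviations taken away are among the settings drawn in the plot of fold changes by setting.

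**Figure D5:**
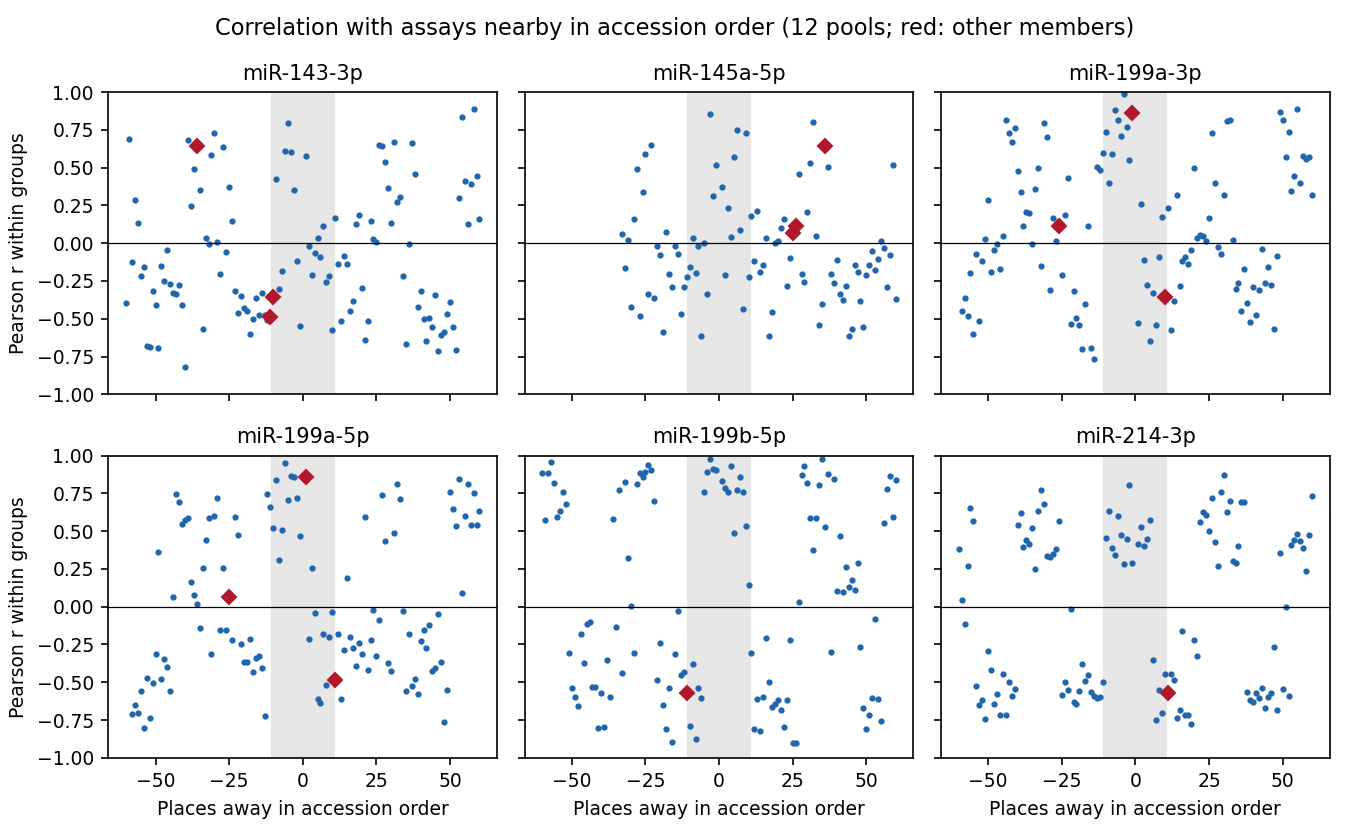
Pearson r within groups between each of the 6 microRNAs and the complete assays up to 60 places away in accession order, with grey for 10 places on either side and red diamonds for other members. For miR-199b-5p many grey-zone assays lie above 0.5, but those at places −10 to −6 lie below 0, down to −0.88. For miR-143-3p and miR-145a-5p the grey-zone assays also lie on both sides of 0.

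The other microRNAs known from stromal and smooth muscle cells did not pass either. Of 24 listed, 21 were measured, and 0 passed limma's adjusted threshold in any of the 5 contrasts, against 0% to 1.39% of all 504 microRNAs. Against CD their median log2 fold change was 0.07 in WL, −0.09 in UL and −0.33 in UT, where 18 of 21 lay below 0. For all microRNAs the medians were −0.06, −0.07 and −0.01, and 51.2% lay below 0 in UT. These list values hold for the main scaling only. RNU-43 scaling, which moved the median of all microRNAs in UT to 0.73, was not applied to the list. For the 4 with the highest mean level over all pools the log2 fold change in UT was 0.12 for miR-21a-5p, a microRNA of fibrosis, −0.02 for miR-26a-5p, −0.51 for miR-29c-3p and −0.61 for miR-29a-3p, which both repress collagen genes. Their limma adjusted p values lay between 0.810 and 1.00.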

How the data were processed

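Quantitative RT-PCR of total RNA from fat pads was deposited as threshold cycles (Ct) before normalization, per the file headers. The authors also deposited normalized values, headed as ratios, which grow with Ct here, opposite to their header. They were used with the sign turned, as an alternative. The authors' deposited fold change table was compared with means of all 220 sets of 3 pools (tolerance 0.0001 on the log2 scale) and gave no value reported here, since its UL and WL columns average other pools than those so titled. Neither labels nor headers name the PCR platform or the rule that set Ct.

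Of 507 rows, 1 duplicate was dropped, which left 504 microRNAs and 2 reference RNAs. MicroRNAs with Ct under 35 in at least 3 pools were kept. Relative levels were tested with limma 3.58.1 in R 4.3.3 (lmFit and eBayes, two-sided), in one model of the 4 group means. Benjamini-Hochberg adjustment ran over all 504 microRNAs, with a threshold of 0.05. Precision is limited by 3 pools a group, with standard errors of 0.43 in the median. The script was tested on simulated data with independent noise in each assay, whereas the measured assays close in accession order deviated together. That test therefore cannot tell how often calls are false in these data. Named microRNAs were the 6 members, their opposite arms, the 3 likest to each and the 4 highest of the stromal list. The members and lists were chosen with earlier results of these data known. Alternatives covered scaling, filters, spread, weights, neighbouring assays, the replicate number as a block and leaving out pools.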

Additional observations from a re-analysis of the deposited data

How the results depend on the processing

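In 28 alternative settings no member passed limma's threshold in any of the 5 contrasts (0 of 840 recomputed fold changes). Direction was the same in 786 and turned in 54, but many of the 840 could not turn. Changing the filter, the estimate of the spread, the eBayes options or adding the replicate block leaves the members' log2 fold changes as they were. Leaving out a pool that is not in a contrast moves them only through the scaling. The small number of pools and the shared CD samples limit all comparisons. No setting turned miR-143-3p in UT over CD (−1.26 to −0.32) or miR-199a-5p (−1.12 to −0.088 in UT and −1.03 to −0.37 in WL). The median of all microRNAs moved to 0.73 (UT), 0.30 (UL) and −0.050 (WL) with RNU-43 scaling, to 0.37, 0.12 and 0.22 with U6 and RNU-43 (a setting that also drops WL 3 and UT 1, and leaving out WL 3 alone moved WL to 0.026), and to −0.16 in UT with the sample median. The cause of the changes below was not tested.

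With RNU-43 scaling the log2 fold changes in UT over CD were 0.43 for miR-145a-5p, 0.24 for miR-199a-3p, 0.68 for miR-199b-5p and 0.18 for miR-214-3p. In UL over CD they were 0.0087 for miR-143-3p, 0.17 for miR-199a-3p, 0.059 for miR-199a-5p, 0.25 for miR-199b-5p and 0.24 for miR-214-3p. miR-199a-3p in UL over UT was −0.077 and miR-143-3p in WL over UL −0.15. With U6 and RNU-43, over the 10 pools with U6, so that scaling and pools changed together, turned values were 0.0039 for miR-143-3p and 0.72 for miR-199b-5p in WL over CD, and 0.27 for miR-145a-5p, 0.071 for miR-199a-3p and 0.45 for miR-199b-5p in UT over CD. Further ones were 0.0726 for miR-199b-5p and 0.061 for miR-214-3p in UL over CD, −0.0825 for miR-199a-3p in UL over UT and 0.65 for miR-199b-5p in WL over UL. Quantile normalization gave −0.12 for miR-145a-5p in WL over CD, 0.028 for miR-214-3p in UL over CD and −0.13 for miR-143-3p in WL over UL. The deposited ratios gave −0.010 for miR-145a-5p in WL over CD and 0.028 for miR-199b-5p in UL over UT, where the sample median gave 0.085.

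For miR-199b-5p, array quality weights gave 0.23 in WL over CD, 0.18 in UL over UT and 0.27 in WL over UL. Subtracting neighbouring assays (deviations from group means) gave 0.00686 for miR-214-3p in WL over UL. Subtracting deviations from means over all pools, chosen after seeing the data, gave 0.21 and 0.37 for miR-199b-5p in WL over CD and WL over UL. Leaving out UT 2 and WL 3, also chosen after seeing the data, gave 0.52, 0.28 and 0.64 for it in WL over CD, UT over CD and WL over UL, and 0.077 for miR-145a-5p in UL over UT. Leaving out single pools gave −0.17 to 0.47 (WL over CD), −0.56 to 0.083 (UT over CD) and −0.39 to 0.079 (UL over UT) for miR-145a-5p, −0.13 to 0.49 for miR-143-3p in WL over UL, and −0.31 to 0.081 and −0.30 to 0.089 for miR-214-3p in UL over CD and WL over UL. For miR-199b-5p it gave −0.73 to 0.52 (WL over CD), −0.34 to 0.15 (UL over CD), −0.50 to 0.28 (UT over CD), −0.39 to 0.39 (UL over UT) and −0.61 to 0.64 (WL over UL).

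Over all microRNAs 3 passed in WL over CD, 3 in UL over CD, 7 in UT over CD, 0 in UL over UT, 0 in WL over UL and 2 in the F test. RNU-43 scaling gave 5 (UL over CD), 12 (UT over CD), 4 (UL over UT) and 10 (F test), and U6 with RNU-43 gave 6, 16, 5 and 13, and 1 in WL over UL. Array quality weights gave 6 in WL over CD, 6 in UL over CD, 12 in UT over CD, 7 in UL over UT and 14 in the F test, and subtracting neighbours gave 9, 8, 19, 9 and 14 (4 in UT over CD with deviations from means over all pools). Subtracting deviations from group means removes spread within groups but leaves differences between groups nearly as they were. The standard error of miR-199b-5p in UT over CD was 0.25 with it, against 0.59 in the main fit. Its counts therefore cannot be set beside the others as equals. Without UT 2 and WL 3 there were 6 in UL over CD, 15 in UT over CD, 13 in UL over UT, 1 in WL over UL and 15 in the F test. Complete microRNAs alone gave 0 in WL over CD, 0 in UL over CD, 1 in UT over CD and 0 in the F test. A Ct under 30 in at least 3 pools, and eBayes with trend and robust, each gave 1 in UL over CD and 1 in the F test. The spread from the 2 groups compared gave 1 in WL over CD and 5 in UL over UT. Leaving out single pools gave 2 to 6 in WL over CD, 2 to 6 in UL over CD, 1 to 11 in UT over CD, 0 to 8 in UL over UT, 0 to 1 in WL over UL and 1 to 12 in the F test.

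Pools share replicate numbers across groups. Deviations of same-numbered pools correlated by −0.27 to 0.26, and 5 of 12 pools correlated best with their own number in another group. In each other group 1 of the 3 pools bears that number. The number is therefore not used as a pairing in the main results. With the replicate block 4 microRNAs passed in UT over CD, 1 in UL over UT and 4 in the F test. No member passed in a contrast with it, and miR-143-3p in UT over CD had a limma adjusted p of 0.353.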
